A study of Mus musculus with 8 samples.

Results

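Assembled isoforms of annotated protein-coding loci were followed in mouse bone marrow-derived macrophages, with and without interleukin-4 (IL-4). An isoform was included when the merged annotation gave it class code j, the code for a transcript that shares at least 1 splice junction with a reference transcript but differs from it elsewhere. Its locus had to carry a coding-sequence identifier, and its abundance had to reach 1 FPKM in at least 4 of the 8 libraries. FPKM are fragment numbers divided by transcript length and by the size of the library. These criteria left 2807 isoforms at 2053 loci, of 24536 transcripts with code j at 7444 coding loci and of 89208 transcripts with FPKM values in all. Each isoform was set against the summed FPKM of the transcripts with code = at its locus. These match a reference transcript in their introns and are called the reference isoforms here. Of the 58970 transcripts with code =, 3621 were themselves assembled.

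The cells were macrophages grown from bone marrow of C57BL/6 mice, left untreated in 4 libraries and treated with IL-4 in the other 4. The labels give neither the dose or duration of IL-4 nor the age of the mice, and they do not say whether each library came from a separate animal, so a p-value here reflects how far the 8 samples spread, which may be technical in part. Total RNA was depleted of ribosomal RNA before library preparation, so RNA was not selected by its poly(A) tail. Total counts per library ran from 23071022 to 27783417. Counts on chromosome Y were 5808 and 5525 in the libraries with replicate number 4 and 0 to 7 in the others. Both replicate 4 libraries therefore stood apart from the rest in each group, and the counts of changed isoforms and loci are given with and without them. The files pair their transcript and locus identifiers with no gene names, and 0 of 86328 identifiers occurred in the reference tables at hand, so macrophage markers could not be checked and loci are named by mm9 position.

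A protein-coding gene gives rise to several mRNAs when transcription starts at different promoters, when splice sites are chosen differently, or when an intron is left in the transcript. An alternative promoter usually replaces the first exon, which can change the 5′ untranslated region or the start of the protein, and it lets another set of transcription factors drive the gene. An exon skip or a shifted splice site changes the coding sequence inside the transcript, and a retained intron often introduces a stop codon or keeps the RNA in the nucleus. IL-4 is a cytokine of type 2 immunity that acts on macrophages through its receptor and the transcription factor STAT6, and it induces the state known as alternative activation.

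All 2807 isoforms were built by the assembler and none was a transcript of the reference annotation. Other catalogues were not checked. At 1519 loci there was 1 such isoform, at 380 loci there were 2, and the largest number was 11. Their FPKM, used by the criteria and given here as a description, had a median of 1.97 averaged over the 8 libraries, with a range of 0.627 to 2871. Only 502 isoforms averaged 5 FPKM or more, 228 averaged 10 or more and 10 averaged 100 or more. Reference isoforms of coding loci that met the same abundance threshold had a median of 4.98 FPKM. Between 2326 and 2451 of the isoforms reached 1 FPKM in a library, and together they held 2.30 to 3.11% of all FPKM of a library. The abundance of 1526 isoforms was at least 1 FPKM in all 8 libraries. Another 145 reached it in all 4 untreated and in none of the IL-4 libraries, and 124 did so in the opposite way. These 269 one-group isoforms entered only through the group where they were high, so they had to differ in FPKM and are set apart below.

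The abundance threshold divided a continuum. TCONS_00043138 on chromosome 2 (90585527 to 90621177) just entered, with 1.0001 FPKM as the value that decided it, and ranged from 0.356 to 1.51 over the libraries. TCONS_00048077, also on chromosome 2 (150658251 to 150730467), just stayed out with 0.998 FPKM as that value and ranged from 0.328 to 2.01.

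Start sites were the first place where these isoforms departed from the reference. In 1305 of the 2807 (46.5%) the start-site identifier of the merged annotation was shared with no reference isoform of the locus, against 37.9% of the other 21729 code j transcripts of coding loci. The distance of such an own start site from the nearest reference start had a median of 724 nucleotides (nt). It lay upstream of that start in 868 isoforms and downstream in 436, and it exceeded 1000 nt in 557. In 644 isoforms (22.9%, against 13.5% of the others) the whole first exon fell outside every reference exon of the locus, and 621 of these also had an own start site. A first exon of this kind, joined to known downstream exons, is the structure that an alternative promoter produces, but start sites of assembled transcripts are inferred from read coverage and were not measured directly.

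Inside the transcript, 1889 isoforms (67.3%) used at least 1 intron that no reference isoform of the locus contains. The ends of these introns fell into several classes, which can occur together in 1 isoform. A known acceptor was joined to a donor absent from the reference in 839 isoforms (29.9%), and a known donor to an acceptor absent from the reference in 559 (19.9%). In 497 isoforms (17.7%) an intron had both ends absent from the reference. At least 1 reference exon was skipped in 306 isoforms (10.9%), and an internal exon was added in 168 (5.99%). The other 918 isoforms (32.7%) used only known introns. Of these, 361 retained a reference intron inside an exon and 557 did not. In all, a reference intron was retained inside an exon in 581 isoforms (20.7%), a smaller share than the 33.0% among the other code j transcripts. The plot of structural features sets these shares beside those of the less abundant code j transcripts.

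**Figure D1:**
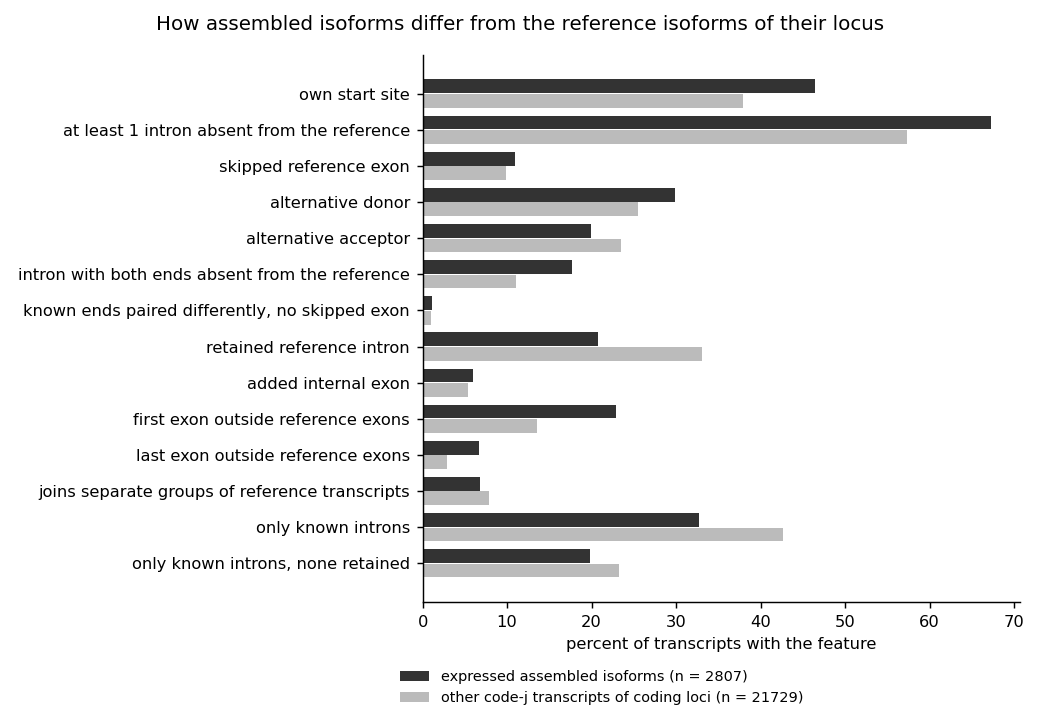
Percent of transcripts with each structural feature (horizontal axis) among the 2807 expressed assembled isoforms (dark bars) and the other 21729 transcripts with code j at coding loci (light bars). Own start sites (46.5 against 37.9%) and first exons outside reference exons (22.9 against 13.5%) were the more frequent in the expressed isoforms, and retained introns (20.7 against 33.0%) the less frequent.

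Where only 1 end of an intron was displaced, shifts had a median of 39 nt for acceptors and 510 nt for donors. A shift of at most 10 nt was found in 222 of the 557 acceptors and in 111 of the 806 donors, and these short shifts had preferred sizes. Among the 557 distinct introns with a shifted acceptor, the acceptor moved by 3 nt in 74 (13.3%), 41 downstream and 33 upstream, which adds or removes exactly 1 codon where the exon is coding. Displacement by 1 nt was nearly as common, with 67 introns upstream and 0 downstream. Of the acceptors displaced by up to 30 nt, 41.4% had moved by a multiple of 3. Among the other code j transcripts, 13.2% of 4255 shifted acceptors moved by 3 nt. Of those displaced by up to 30 nt, 26.6% moved by a multiple of 3. Donors of the expressed isoforms differed from their acceptors. Among the 806 distinct introns with a shifted donor, 6 moved by 3 nt and 21 by 4 nt. The most common donor shift was 1 nt downstream, in 49 introns. Only 16.5% of donor shifts of up to 30 nt were multiples of 3. Nearly all acceptor shifts of 1 or 2 nt were upstream and nearly all such donor shifts downstream, so that the intron was shorter than the reference one.

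**Figure D2:**
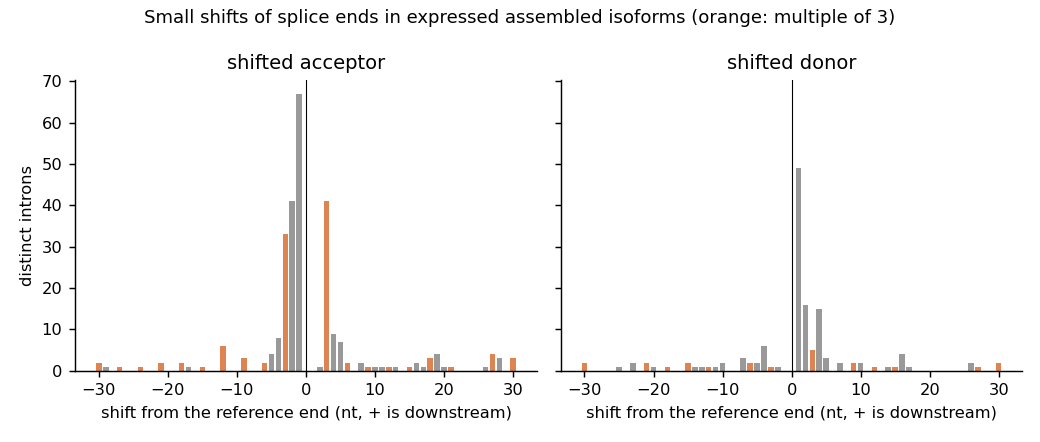
Number of distinct introns (vertical axis) by the shift of the acceptor (left) or donor (right) from the nearest reference end in nucleotides (horizontal axis, positive is downstream in the direction of transcription), for shifts of up to 30 nt in the expressed assembled isoforms. Shifts by a multiple of 3 are orange. Acceptor shifts gather at 1 nt upstream (67 introns), 2 nt upstream (41) and 3 nt on both sides (41 downstream, 33 upstream). Donor shifts gather at 1 nt downstream (49).

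At most loci the assembled isoform was the minor form. The share of an isoform, its FPKM as a percentage of the sum of its own and the reference FPKM of the locus, had a median of 17.6% over all libraries, with quartiles of 7.83 and 38.2%. It exceeded 50% for 482 isoforms in the untreated group and for 484 in the IL-4 group. Summed over all isoforms of a locus, the assembled forms outweighed the reference forms at 446 of the 2053 loci (21.7%). Over all member loci together, the assembled isoforms held 12.65, 13.6, 13.69 and 11.59% of the FPKM of assembled and reference isoforms in the untreated libraries, a mean of 12.9% ± 0.984 (SD, n = 4). The IL-4 libraries held 11.63, 11.55, 11.78 and 11.73%, a mean of 11.7% ± 0.102 (SD, n = 4). The untreated value of replicate 4 lay within the IL-4 range and the other 3 lay above it. That library listed every isoform of the most abundant locus at 0. Without the loci listed at 0 in a library despite at least 100 counts, the shares were 11.4% ± 0.463 and 10.6% ± 0.245 (SD, n = 4 each), and untreated replicate 1, at 10.69%, lay within the IL-4 range of 10.33 to 10.89%.

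The first comparison asked which of the assembled isoforms differed in abundance after IL-4. Of the 2807 isoforms, 450 rose and 565 fell in FPKM, 36.2% together (limma on log2(FPKM + 0.1), Benjamini-Hochberg adjusted p under 0.05 over 17500 isoforms). Over all isoforms tested, 38.4% changed, 19.8% upward and 18.5% downward, and of the reference isoforms 39.2%. The 36.2% includes the 269 one-group isoforms, which had to differ. Without them, 327 rose and 433 fell of 2538, or 29.9%. One-group isoforms were not taken out of the 38.4 and 39.2%, so the 29.9% has no like background. Without both replicate 4 libraries, 366 of the 2807 rose and 474 fell. The median log2 change was -0.09, against 0.00 over all isoforms. These folds understate the change of low isoforms because of the pseudocount of 0.1. Fewer transcripts per cell and fewer cells that hold them cannot be told apart in these bulk samples.

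Counts per locus were a readout the criteria had not used. Of 1993 loci of assembled isoforms that could be tested, 559 rose and 573 fell (edgeR's quasi-likelihood test, Benjamini-Hochberg adjusted p under 0.05), 56.8% together, against 51.8% of all tested loci and 54.3% of the protein-coding ones. Of the 1015 isoforms whose FPKM changed, 823 lay at loci whose counts changed in the same direction and 26 at loci whose counts changed in the opposite one. At 151 the locus count did not pass the test and at 15 the locus was not tested. Without both replicate 4 libraries, counts rose at 483 of the loci and fell at 533.

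The second comparison asked which assembled isoforms moved apart from the reference isoforms of their own locus. It used the log2 ratio of the isoform to the summed reference FPKM, both with 0.1 added. The 2585 isoforms tested were those whose summed reference FPKM also met the abundance threshold. The ratio rose with IL-4 for 115 isoforms and fell for 187, 11.7% together (limma, Benjamini-Hochberg adjusted p under 0.05). Over all 10776 isoforms tested in this way 9.99% changed, 4.7% upward and 5.28% downward, and over the reference isoforms alone 9.47%. Without the one-group isoforms, 67 rose and 143 fell of 2349, or 8.94%. The ratios of the 2 groups did not overlap for 526 isoforms (20.4%), against 18.3% of all isoforms tested. Without both replicate 4 libraries 67 rose and 78 fell. Leaving out IL-4 replicate 1 left 76 rises, and leaving out IL-4 replicate 2 left 120 falls.

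Changes of the ratio lay both at loci whose counts changed and at loci whose counts did not pass the test, which need not be unchanged. For comparison, counts changed at 56.8% of the tested loci of assembled isoforms and at 51.8% of all tested loci. Among the 115 isoforms whose ratio rose, locus counts rose for 65, fell for 25 and did not pass the test for 24. Among the 187 whose ratio fell, locus counts rose for 59, fell for 70 and did not pass the test for 53. The reference mean moved opposite to the mean of the assembled isoform for 51 of the rises and for 91 of the falls. These numbers compare only the direction of the means, in isoforms picked for a changed ratio. The size of each part was not tested, and no share over the other isoforms was taken. The ratio changed at least 2-fold for 87 of the rises and 98 of the falls. The 302 changed isoforms belonged to 247 loci, and at 10 of the 40 loci with several of them the isoforms moved in opposite directions.

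**Figure D3:**
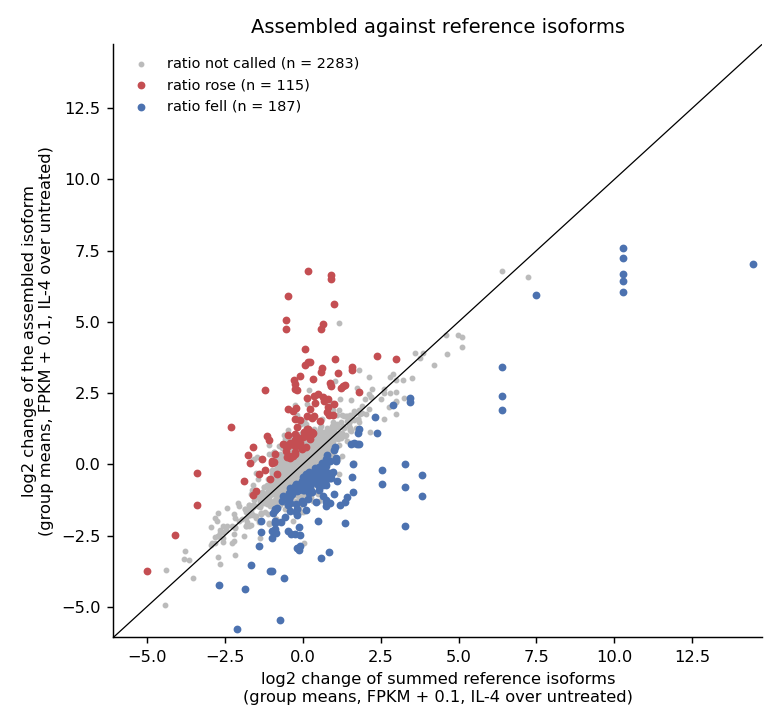
Log2 change with IL-4 of each assembled isoform (vertical axis) against that of the summed reference isoforms of its locus (horizontal axis), both from group means of FPKM + 0.1, for 2585 isoforms. Red points are the 115 isoforms whose ratio rose, blue points the 187 whose ratio fell and grey points the rest; the line marks equal change, and the blue points at the far right belong to loci where the reference went up more than the assembled form.

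Isoforms with an own start site made up most of the changes. Of 1192 tested isoforms with an own start, the ratio rose for 82 and fell for 114 (16.4%), whereas of 1393 that share a reference start 33 rose and 73 fell (7.61%). Reference isoforms split in the same way had 14.1% changed with an own start and 8.09% without, so the division was not particular to the assembled ones. Without the one-group isoforms the shares were 12.5 and 6.13%. Isoforms whose first exon lay outside all reference exons had 56 rises and 58 falls of 580 (19.7%), and 14.7% changed without the one-group isoforms. Reference isoforms with such a first exon had 19.2% changed, with one-group isoforms not set apart. The start sites of the 82 risers lay at a median of 2999 nt from the nearest reference start, and those of the 114 fallers at 981.5 nt. Without both replicate 4 libraries 48 isoforms with an own start rose and 49 fell. Leaving out untreated replicate 2 or untreated replicate 4 left 75 or 74 falls.

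Among isoforms with a retained intron, falls outnumbered rises. Of 556 tested, the ratio rose for 15 and fell for 56 (12.8%), the median log2 change was -0.20 and 70.7% lay below 0. Without the one-group isoforms 6 rose and 45 fell of 495, with 70.9% below 0. Of the 2029 isoforms with no retained intron, 100 rose and 131 fell (11.4%), with a median of -0.00 and 50.2% below 0. Of 603 reference isoforms that retain an intron of another reference isoform, 23 rose and 36 fell (9.78%). Their median was -0.08, with 60.2% below 0. The share changed was thus near that of the other sets, and falls outnumbered rises in each of them. The number of falls depended on single libraries. It was 29, 33 and 32 without untreated replicates 2, 3 and 4, and 36, 27 and 34 without IL-4 replicates 1, 2 and 4, while rises were 9 without IL-4 replicate 2. Without both replicate 4 libraries 6 rose and 15 fell. The level of these isoforms was low, with a median of 1.63 FPKM against 2.14 for those with no retained intron, and its part in the result was not tested. Of 271 isoforms with a skipped exon, 11 rose and 12 fell (8.49%), and of those with none 12.1% changed; that difference was not tested.

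**Figure D4:**
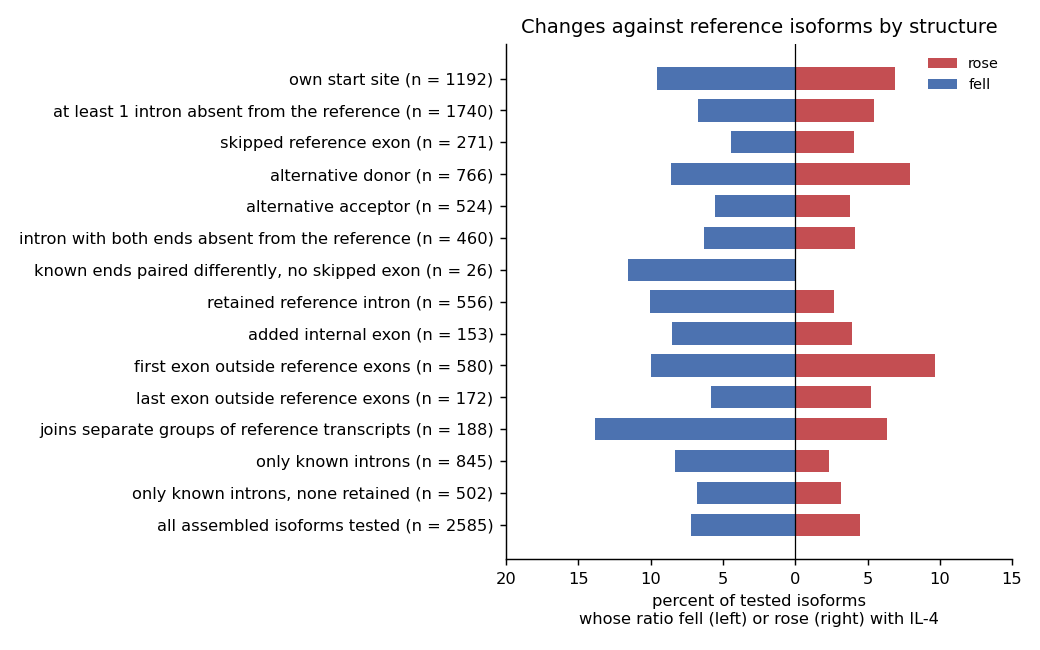
Percent of tested assembled isoforms whose ratio to the reference fell (blue, left) or rose (red, right) with IL-4, by structural feature, with the number tested in parentheses; an isoform can have several features. First exons outside reference exons had 19.7% changed, or 14.7% without the one-group isoforms. Reference isoforms with that feature, with one-group isoforms not set apart, had 19.2%. Retained introns had more falls than rises (56 against 15), as had all tested assembled isoforms (187 against 115).

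The 10 largest rises of the ratio, among isoforms and references averaging at least 1 FPKM, are described with their structure, since both the abundance criteria and the size of the change picked them. All 10 had an own start site and a first exon outside the reference exons, and 9 of them joined that exon to a known acceptor through a donor absent from the reference. None skipped an exon or retained an intron. Their start sites lay 373 to 112981 nt from the nearest reference start. Of the 10, 8 were one-group isoforms, all but TCONS_00054290 and TCONS_00060993, and for such isoforms the change of the ratio is given as a description with no test. Among the 10 largest rises of isoforms that were not one-group, 8 had an own start site, 6 a first exon outside the reference exons and 5 an alternative donor, with log2 changes of 1.83 to 6.20. The size of the first 10 changes depended on the pseudocount: the log2 changes of 4.02 to 6.57 became 4.26 to 9.88 with a pseudocount of 0.01 and 1.43 to 4.17 with 1.

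The largest rise was TCONS_00082772, a 14-exon isoform on chromosome 9 (108890335 to 108934813, plus strand; nearest reference uc012hba.1) that starts 3612 nt upstream of the nearest reference start. It measured 11.1, 12.2, 13.3 and 7.37 FPKM in the IL-4 libraries and no more than 4.74e-06 in any untreated one. The reference isoforms stayed close to their level, at 10.8 ± 1.59 FPKM untreated and 12.2 ± 1.34 with IL-4 (SD, n = 4 each). The assembled form reached 46.9% ± 8.48 of its own plus the reference FPKM, and 34.1% ± 7.39 of all FPKM of the locus, which holds 2 further assembled isoforms (SD, n = 4 each). The log2 ratio was higher by 6.57 (SE 0.25) with IL-4, and the locus count rose by 0.68 (SE 0.07; edgeR, adjusted p = 1.61e-05).

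TCONS_00043993 on chromosome 2 (125082182 to 125084785, plus strand; uc008mck.1) starts 617 nt upstream of the reference and has 4 exons. It measured 8.41, 11.4, 11.4 and 7.90 FPKM with IL-4 and at most 2.74e-07 untreated, while the reference went from 5.02 ± 0.622 to 9.43 ± 0.432 FPKM (SD, n = 4 each). Here both forms were higher with IL-4, and the assembled one reached 50.5% ± 5.24 of the sum of both and 34.4% ± 2.52 of all FPKM of the locus, which holds a second assembled isoform (SD, n = 4 each). The log2 ratio was higher by 5.70 (SE 0.18), and the locus count rose by 2.45 (SE 0.10; edgeR, adjusted p = 2.01e-08).

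TCONS_00012341 on chromosome 11 (117187933 to 117223639, plus strand; uc007mnd.2) starts 5096 nt upstream of the nearest reference start and measured 0.101, 0.219, 0.450 and 0.749 FPKM untreated. With IL-4 it measured 26.1, 23.9, 20.3 and 23.0 FPKM, and its share went from 1.24% ± 0.965 to 26.9% ± 1.15 (SD, n = 4 each). The IL-4 libraries were close together and all far above the untreated ones. The reference isoforms of this locus were higher too, at 63.1 ± 3.05 against 31.1 ± 2.23 FPKM (SD, n = 4 each), and the log2 ratio was higher by 4.79 (SE 0.45).

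At XLOC_018695 on chromosome 4 the assembled isoforms lie deep inside the gene. TCONS_00054290 (95577712 to 95593636, plus strand; uc008tsy.2) is a 3-exon transcript of 406 nt that starts 61439 nt downstream of the nearest reference start. It measured 17.3, 20.0, 18.2 and 15.1 FPKM with IL-4, against 1.09 and 1.13 in untreated replicates 1 and 3 and practically 0 in the other two. TCONS_00054291, with an added internal exon and almost the same start, measured 21.2, 17.1, 17.1 and 17.9 FPKM with IL-4 and at most 0.702 untreated. The reference isoforms went from 12.2 ± 1.17 to 8.41 ± 0.714 FPKM (SD, n = 4 each), so each short form outweighed them with IL-4 and not before. The locus count itself moved little, by 0.20 (SE 0.07; edgeR, adjusted p = 0.0341), a call that did not hold (adjusted p of 0.0529 to 0.0883) when any 1 of untreated replicates 2, 3 and 4 was left out, or when replicate 3 or 4 of the IL-4 group was. The ratio of TCONS_00054290 rose by 6.20 (SE 0.95; limma, adjusted p = 0.00551).

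A similar inner start was seen at 2 other loci. TCONS_00065801 on chromosome 6 (97779274 to 97971352, plus strand; uc009daz.2) starts 22222 nt downstream of the nearest reference start and measured 4.81, 9.42, 12.4 and 4.53 FPKM with IL-4, against at most 0.122 untreated. The IL-4 libraries varied widely, with shares between 14.6 and 54.5%. TCONS_00063945 on chromosome 5 (140484642 to 140625522, minus strand; uc009ahj.1) starts 112981 nt downstream and measured 2.45 to 2.96 FPKM with IL-4 against at most 0.112 untreated, while its reference isoforms were at 8.45 ± 0.832 and 8.95 ± 1.09 FPKM (SD, n = 4 each). Their log2 ratios were higher by 6.41 (SE 0.61) and 4.02 (SE 0.23).

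XLOC_024537 on chromosome 7 (uc009hwx.2) held an assembled isoform that was higher and another that was lower with IL-4, both of them one-group isoforms. TCONS_00070916 (82814547 to 82899497, plus strand, 29 exons), which starts 26342 nt downstream of the nearest reference start, measured 3.85, 2.70, 3.56 and 1.97 FPKM with IL-4 and at most 0.0627 untreated. TCONS_00070919 (82846870 to 82899497, 22 exons) begins further inside, 8 nt from a reference start, and uses only known introns. It measured 2.58, 1.96, 1.51 and 1.77 FPKM untreated and 0.268, 0.0977, 0.0669 and practically 0 with IL-4. No library of either group overlapped the other for either isoform. The log2 ratios differed by 4.17 (SE 0.29) and by -4.01 (SE 0.44), while the locus count rose by 0.45 (SE 0.10; edgeR, adjusted p = 0.00262).

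Of the remaining large rises, TCONS_00052717 on chromosome 3 (108629004 to 108648444, minus strand) starts 5024 nt upstream of the reference and went from at most 0.101 to between 3.39 and 5.65 FPKM. TCONS_00060993 on chromosome 5 (136150420 to 136211195, plus strand) shares 86.0% of its exonic sequence with other loci, so its value may include their fragments. It measured 0.410, 0.545, 0.335 and 1.69 FPKM untreated and 4.36 to 5.78 with IL-4, while the reference isoforms went from 55.7 ± 7.63 to 24.3 ± 3.09 FPKM (SD, n = 4 each). TCONS_00046095 on chromosome 2 (32728809 to 32817144, minus strand) went from between 0.611 and 0.753 FPKM untreated to between 1.42 and 2.23 with IL-4. Its reference isoform measured 4.15, 2.76, 2.90 and 2.83 FPKM untreated and 0.965, practically 0, practically 0 and 1.28 with IL-4. Its log2 ratio was higher by 4.50 (SE 1.03), the largest SE of the 10. In 8 of 17 alternative settings that ratio did not pass the threshold (limma, adjusted p of up to 0.0824). TCONS_00046095 is 55971 nt long and ends 51931 nt downstream of the reference end.

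**Figure D5:**
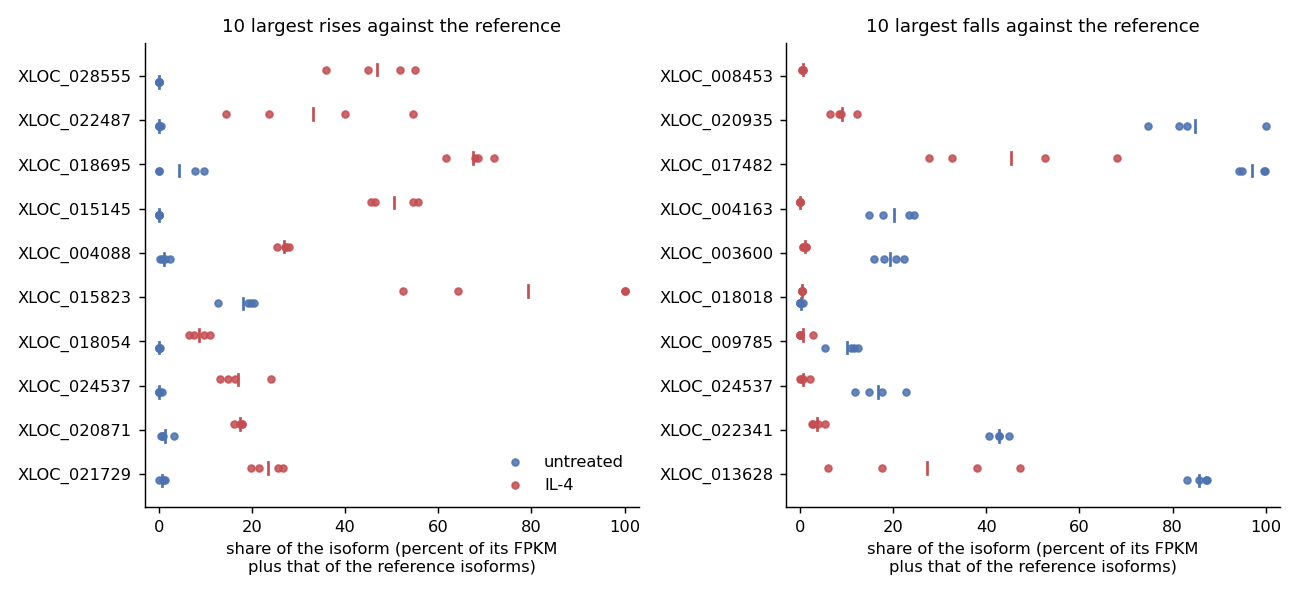
Share of an assembled isoform in percent of its own plus the reference FPKM of the locus (horizontal axis) for the 10 largest rises (left) and the 10 largest falls (right) of the ratio, 1 row per locus; points are libraries, untreated in blue and IL-4 in red, and vertical marks are group means. XLOC_008453 has no untreated share because its isoform and its reference were both listed at 0 there, and XLOC_018018 shows that a fall of the ratio with the pseudocount need not be a fall of the share.

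The 10 largest falls were less uniform: 5 had an own start site, 6 an alternative donor and 3 used only known introns, and 7 were one-group isoforms, all but TCONS_00061210, TCONS_00050807 and TCONS_00010617. Among isoforms that were not one-group, the 10 largest falls were closer in structure to the 10 largest rises. Of these falls 6 had an own start site, 5 a first exon outside the reference exons and 7 an alternative donor. The same numbers for the rises were 8, 6 and 5. The log2 changes of these falls were -5.962 to -2.465. TCONS_00061210 on chromosome 5 (141211631 to 141237413, plus strand; uc009aif.1) has its own first exon, 151 nt from the nearest reference start. It measured 6.09, 4.45, 3.59 and 3.47 FPKM untreated and 1.22, 1.03, 0.738 and 0.655 with IL-4. The reference isoforms went the other way, from 0.867 ± 0.611 to 9.28 ± 1.65 FPKM, and the share of the assembled form from 84.8% ± 10.8 to 9.01% ± 2.43 (SD, n = 4 each). The locus holds 2 further assembled isoforms, and of all its FPKM the isoform made up 35.1% ± 5.91 untreated and 5.93% ± 1.70 with IL-4 (SD, n = 4 each), with no overlap. The ratio to the reference fell by 5.96 on the log2 scale (SE 0.75; limma, adjusted p = 0.00214), the ratio to all other transcripts of the locus by 3.0 (adjusted p = 0.000239), and the locus count fell by 0.37 (SE 0.08; edgeR, adjusted p = 0.00335).

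XLOC_017482 on chromosome 3 (108374617 to 108384989, plus strand; uc008qzh.1) held assembled isoforms that start at the reference start and differ from it in a donor site. TCONS_00050807 starts at the reference start and measured 9.19, 10.6, 9.31 and 9.67 FPKM untreated and 6.28, 5.81, 2.38 and 3.38 with IL-4. The reference isoform went from 0.287 ± 0.289 to 5.39 ± 1.86 FPKM (SD, n = 4 each). The share of the assembled isoform was 97.1% ± 2.95 untreated and 45.2% ± 18.6 with IL-4 (SD, n = 4 each), so the IL-4 libraries varied more. The locus count did not pass the test, with a log2 change of -0.09 (SE 0.10; edgeR, adjusted p = 0.445), whereas the ratio to the reference fell by 5.34 (SE 0.77; limma, adjusted p = 0.00403) and that to all other transcripts of the locus by 3.10 (adjusted p = 0.00557). A second isoform of the locus, TCONS_00050808, went from 83.7% ± 15.6 to 16.6% ± 7.92 of the sum of itself and the reference (SD, n = 4 each). Set against all other transcripts of the locus, TCONS_00050807 included, its ratio changed by -0.40 and did not pass the test (limma, adjusted p = 0.515).

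TCONS_00039620 on chromosome 19 (34625184 to 34651024, plus strand; uc008hgn.2) belonged to a locus with a large fall in counts. It measured 21.0, 20.1, 16.1 and 37.1 FPKM untreated and 0.635, 0.0539, 0.419 and 0.226 with IL-4, and the reference went from 3.85 ± 1.27 to 0.818 ± 0.168 FPKM (SD, n = 4 each). The log2 ratio differed by -3.85 (SE 0.51). Locus counts went from 165 ± 62.7 to 7.01 ± 1.23 CPM (counts scaled to the library total; SD, n = 4 each), and fell by 4.46 (SE 0.27; edgeR, adjusted p = 2.01e-07).

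TCONS_00065313 on chromosome 6 (64992421 to 65089439, plus strand; uc009ced.1) starts 240 nt upstream of the nearest reference start and spans 24 exons. With 28503 nt it is long, and it ends 23396 nt downstream of the nearest reference end. It measured 2.34 to 4.03 FPKM untreated and 0.229 to 0.456 with IL-4, while the reference isoforms were higher with IL-4, at 8.08 ± 0.389 against 4.50 ± 0.737 FPKM (SD, n = 4 each). Its share went from 42.7% ± 1.78 to 3.71% ± 1.23 (SD, n = 4 each), and the log2 ratio differed by -3.94 (SE 0.19). The locus count did not follow the reference isoforms but fell, with a log2 change of -1.04 (SE 0.13, edgeR, adjusted p = 4.46e-05). TCONS_00012661 on chromosome 11 (4665658 to 4733146, minus strand) and TCONS_00028533 on chromosome 15 (88985979 to 89004507, minus strand) were 2.61 to 6.54 and 2.31 to 6.29 FPKM untreated. With IL-4 the first was at most 4.42e-07 FPKM, and the second was 0.830 FPKM in replicate 1 and practically 0 in the other libraries.

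At 3 of the 10 falls the assembled isoform was itself higher with IL-4. TCONS_00010617 on chromosome 11 (69980134 to 69984336, plus strand; uc007jtw.1) measured 3.23, 1.58, 1.20 and 2.20 FPKM untreated and 9.58, 5.11, 5.20 and 11.7 with IL-4. Its reference isoforms went from 8.40 ± 2.63 to 721 ± 77.4 FPKM (SD, n = 4 each), and the locus count rose by 6.32 (SE 0.21; edgeR, adjusted p = 3.95e-09). The share of the isoform went from 19.3% ± 2.82 to 1.06% ± 0.351 (SD, n = 4 each).

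TCONS_00052602 on chromosome 3 (105945169 to 106152545, minus strand; uc008qvw.2) starts 130148 nt upstream of the nearest reference start and measured 6.24 to 7.63 FPKM with IL-4 and at most 0.00685 untreated. Its reference isoforms went from 1.10 ± 0.350 to 1502 ± 137 FPKM (SD, n = 4 each). Its share was 0.442% ± 0.00809 with IL-4 and near 0 in 3 untreated libraries, with 0.642% in untreated replicate 3, so the fall of its ratio depends on the pseudocount and no direction of its share can be given. TCONS_00024658 on chromosome 14 (51868686 to 51876313, minus strand) and its reference were listed at 0 in all untreated libraries, so its untreated ratio was not measured and its fitted fall has no meaning as an isoform change. It shares 89.0% of its exonic sequence with other loci, and its locus had 0.0573 ± 0.0214 CPM with IL-4 (SD, n = 4) although its reference was listed at 2237 ± 158 FPKM (SD, n = 4).

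In all, 128 isoforms had a mean share above 50% in 1 group and below 50% in the other. Of these, 35 passed the ratio test (limma), 10 upward and 25 downward. Without the one-group isoforms 27 passed, 6 upward and 21 downward. The 128 were picked by a share made from the same FPKM as the tested ratio. A larger part passing than the 9.99% of all tested isoforms was therefore built in, and these numbers are a description only. TCONS_00043993, TCONS_00046095, TCONS_00054291, TCONS_00061210, TCONS_00050808 and TCONS_00039620, described above, had the largest changes of share among the 35 when 1 isoform per locus was taken.

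TCONS_00065427 on chromosome 6 (72499521 to 72512974, plus strand; uc009cit.1) was, of the 6 most abundant isoforms, the one whose ratio passed the test. It has a first exon outside the reference exons, 78 nt from the reference start, joined through a donor absent from the reference. It measured 146, 173, 171 and 162 FPKM untreated and 529, 514, 546 and 538 with IL-4. Its share went from 12.8% ± 1.59 to 27.1% ± 1.41 (SD, n = 4 each), with no overlap, and its ratio rose by 1.35 (SE 0.14; limma, adjusted p = 0.000786). The locus count rose by 0.72 (SE 0.08; edgeR, adjusted p = 1.65e-05).

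TCONS_00068626 on chromosome 6 (129411609 to 129422918, minus strand; uc009efu.2) skips a reference exon and was the main form of its locus. It measured 102, 192, 186 and 162 FPKM untreated and 410, 464, 521 and 406 with IL-4, with shares of 88.7% ± 1.74 and 91.9% ± 0.345 (SD, n = 4 each). Its FPKM rose by 1.52 (SE 0.19; limma, adjusted p = 0.000367), and its ratio did not pass the test (0.52, SE 0.15; limma, adjusted p = 0.0621), although the ratios of the groups did not overlap. The ratio passed with a pseudocount of 1 (adjusted p = 0.0299) and with an FPKM minimum of 5 (0.024), and over all alternatives its p ran from 0.024 to 0.229. TCONS_00068464 on chromosome 6 (125135058 to 125141604, minus strand) retains an intron and made up 97.7% ± 0.811 untreated and 97.6% ± 0.307 with IL-4 of all FPKM of its locus (SD, n = 4 each). It went from 293 ± 27.8 to 168 ± 18.6 FPKM (SD, n = 4 each) as its locus count fell by 0.76 (SE 0.10; edgeR, adjusted p = 0.000105). TCONS_00067586, also on chromosome 6 (72335215 to 72352141, minus strand), starts 11480 nt upstream of the reference and held 84.4% ± 2.49 untreated and 80.0% ± 4.26 with IL-4 of all FPKM of its locus (SD, n = 4 each), with no change past the threshold in FPKM, ratio or locus counts. Without IL-4 replicate 3 its FPKM fell by 0.27 (limma, adjusted p = 0.0263).

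TCONS_00025268 on chromosome 14 (73739613 to 73785179, minus strand) fell from 691 ± 45.4 to 453 ± 59.1 FPKM (SD, n = 4 each; limma, adjusted p = 0.00115). Its reference went from 749 ± 27.8 to 402 ± 30.4 FPKM, and the ratio did not pass the test (0.29, SE 0.11; limma, adjusted p = 0.171). The most abundant of all, TCONS_00008856 on chromosome 10 (116714413 to 116729968, minus strand; uc007hdc.2), measured 4809, 4509, 4129 and 0 FPKM untreated and 2466, 1835, 1941 and 3275 with IL-4. The 0 in untreated replicate 4 stands beside 845942 counts at the locus in that library, the highest of all, and the reference isoforms were listed at 0 there as well. The fitted change of 2.91 on the log2 scale (limma, adjusted p = 0.521) became -0.95 (adjusted p = 0.0091) without that library. Over all alternatives its adjusted p ran from 0.00167 to 0.72, and the locus counts fell by 1.04 (SE 0.20; edgeR, adjusted p = 0.00127). In the 7 libraries with values its share lay between 24.4 and 29.0%.

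XLOC_001782 on chromosome 10 (51199819 to 51216417) held the most assembled isoforms, 11, of which 5 had an own start site. Their sum was 320 ± 70.6 FPKM untreated and 417 ± 75.2 with IL-4, beside reference sums of 305 ± 44.8 and 508 ± 49.4 (SD, n = 4 each). The ratio fell for 2 of the 11 and rose for none (limma). It changed for 11.7% of the 2585 assembled isoforms and for 9.99% of all isoforms tested. The locus count did not pass the test (0.41, edgeR, adjusted p = 0.0626).

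At 168 loci the summed reference FPKM did not reach the abundance threshold, and the 222 assembled isoforms there had no ratio test. Of these, 113 (50.9%) had an own start site, and 46 rose and 50 fell in FPKM (limma, against the background of 38.4% changed), or 30 and 33 of 189 without the one-group isoforms. The 3 examples that follow were chosen after their values were seen. TCONS_00033027 on chromosome 17 (34270380 to 34276041, plus strand; uc008cbl.1) starts 1747 nt upstream of the reference and measured 22.1, 31.9, 29.9 and 32.4 FPKM untreated and 94.9, 111, 114 and 100 with IL-4. Its reference isoforms were at most 0.446 FPKM in any library, and the locus count rose by 1.82 (SE 0.11; edgeR, adjusted p = 1.78e-07). TCONS_00029788 on chromosome 16 (32396859 to 32411423, plus strand; uc012ael.1) starts 3249 nt upstream and measured 7.27 to 9.74 FPKM untreated and at least 48.4 with IL-4, with references of at most 0.042 FPKM and a locus count higher by 2.80 (SE 0.15; edgeR, adjusted p = 8.84e-08). TCONS_00085321 on chromosome 9 (108980502 to 108984685, minus strand; uc009rrw.1) measured 23.4, 33.1, 26.1 and 36.5 FPKM untreated and 30.6, 32.8, 34.3 and 33.1 with IL-4, and neither its FPKM (0.16, SE 0.13; limma, adjusted p = 0.398) nor its locus count (0.15, SE 0.09; edgeR, adjusted p = 0.21) passed the test. Its reference was at most 1.22 FPKM.

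The FPKM values carry limits of their own. The depth behind a single FPKM is unknown, and 23 of the assembled isoforms were listed at exactly 0 in some library. At 11 of the loci every isoform was listed at 0 in a library that had at least 100 counts there, so such a 0 can be a failed estimate. Exonic sequence was shared with another locus by 729 isoforms (26.0%), for 283 of them over more than 50% of their length.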

How the data were processed

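RNA from 4 untreated and 4 IL-4-treated macrophage libraries was sequenced. Per the submitters' processing notes, reads were handled with TopHat2 2.0.9, Cufflinks 2.1.1, HTSeq and CASAVA 1.8.2 on build mm9, with settings not given in the sources used here. What the authors deposited were read counts of 31020 loci, FPKM for 89208 transcripts, and a merged annotation with exon coordinates and class codes. Library codes in the labels identified every value column, leaving 0 unmatched. Exons and introns of each assembled isoform were compared base by base with the = transcripts of its locus.

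FPKM and ratios were tested with limma 3.58.1 in R 4.3.3 (pseudocount 0.1, variance trend) on all isoforms with at least 1 FPKM in at least 4 libraries, and counts with edgeR 4.0.16 (TMM, default expression filter); all tests were two-sided with Benjamini-Hochberg adjustment at 0.05, and DESeq2 1.42.0 served as an alternative. On simulated data the ratio test found 34.3% of changes of 2-fold, 81.8% of those of 4-fold and 0% of those of 1.5-fold, with 6 false calls among 10576 unchanged isoforms.

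Isoforms were named by rule: the 10 largest rises and 10 largest falls of the ratio past the threshold with no overlap between groups and with isoform and reference means of at least 1 FPKM, the 6 most abundant, and up to 6 whose share crossed 50%, with 1 isoform per locus in each part, plus those nearest the abundance threshold. The isoforms, lists and tests were chosen with earlier results of these data known. The summed share is given with no test, although a permutation test had been planned for it. Lists that need gene names were not used, and sequences are not printed because the files' build was not at hand as a genome.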

Additional observations from a re-analysis of the deposited data

Results flagged for a closer look

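Among 72 groups of 4 library values checked for the named isoforms and the summed share, 8 held a library whose gap to the nearest of the others exceeded Dixon's critical value at the 95% level; chance does this in about 1 in 20 groups. The untreated groups gave 5 of them. TCONS_00065801 was 0.122 FPKM in untreated replicate 3 and 0.000754 to 0.00534 in the other untreated libraries. TCONS_00070916 was 0.0627 FPKM in untreated replicate 2 and at most 0.000183 in the others. TCONS_00060993 was 1.69 FPKM in untreated replicate 4 and 0.335 to 0.545 in the others. TCONS_00052602 was 0.00685 FPKM in untreated replicate 3 and at most 1.72e-08 in the others. TCONS_00008856 was listed at 0 in untreated replicate 4 and at 4129 to 4809 FPKM in the others. In the IL-4 group, TCONS_00012661 was 4.42e-07 FPKM in replicate 1 and at most 2.25e-09 in the others, TCONS_00028533 was 0.830 FPKM in replicate 1 and at most 3.49e-11 in the others, and TCONS_00025268 was 542 FPKM in replicate 4 and 417 to 428 in the others. In TCONS_00065801, TCONS_00070916, TCONS_00052602 and TCONS_00012661 every value of the group was far below 1 FPKM.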

How the results depend on the processing

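With an FPKM minimum of 5, which leaves fewer isoforms, 177 rose and 148 fell in FPKM, 43 rose and 56 fell against the reference (own start 27 and 37, retained intron 1 and 11), and the summed share differed by -2.91 percentage points between IL-4 and untreated. Without both replicate 4 libraries, 67 rose and 78 fell against the reference (own start 48 and 49, retained intron 6 and 15). With a replicate block, falls against the reference were 116, of which 74 had an own start and 24 a retained intron; same-numbered libraries had correlations of 0.114, -0.00219, 0.0983 and 0.065 in their deviations from the group means, not all above 0.1, so the numbers were not taken as pairs; whether same-numbered libraries share an animal is not given by the labels. With a pseudocount of 1, 23 isoforms with a retained intron rose. The cause of these differences was not tested. Leaving out each library in turn gave 385 to 438 rises and 485 to 606 falls in FPKM, 76 to 106 and 120 to 223 against the reference (own start 57 to 78 and 74 to 130, retained intron 9 to 14 and 27 to 74), 507 to 615 and 506 to 629 loci in counts, and -1.64 to -0.941 points of summed share. With boundaries within 10 bases counted as the same, 362 isoforms had an alternative acceptor. Against reference isoforms with a mean of at least 1 FPKM, 16 paired known ends differently, 367 had an added exon, 296 a last exon outside, 485 only known introns and 225 of these none retained. The FPKM change of TCONS_00008856 ranged from -0.95 to 4.23 as each library was left out, reversed to -0.95 without untreated replicate 4 or with failed estimates as missing, and to -1.12 without both replicate 4 libraries. Of the other values of named isoforms, 1327 kept direction and side of the threshold, 21 lost the call and 4 gained it. The paired sign test of the summed share was not run because the share has no test. Depth limits the low isoforms most, and its size per FPKM is unknown.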
